A study of Mus musculus with 6 samples.

Results

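Keratins 7, 8, 18 and 19 and claudins 3, 4, 5, 6, 7 and 9 are structural proteins of simple epithelia, and their 10 genes (Krt7, Krt8, Krt18, Krt19, Cldn3, Cldn4, Cldn5, Cldn6, Cldn7 and Cldn9) were followed here while mouse embryonic stem cells (ESCs) became definitive endoderm. They were taken by symbol from RSEM gene tables that list 24054 genes each; all 10 were listed, and all 10 were among the 14539 genes that passed the filter on low counts. RNA-seq was made from 3 sorted populations with 2 biological replicates each, 6 libraries in all. The d0 population was undifferentiated ESCs negative for both reporters at day 0. The d3F population was Foxa2-Venus-positive, Sox17-Cherry-negative mesendoderm at day 3. The d5FS population was definitive endoderm positive for both reporters at day 5. All 3 came from a double knock-in ESC line, heterozygous for Foxa2-Venus and homozygous for Sox17-Cherry, so the controls carry both fusion alleles too. The d3F and d5FS cells had been kept on gelatine in medium with 1 ng/ml Wnt3a and 10 ng/ml Activin A, which no d0 cell had received. Since the cells were sorted on Foxa2 and Sox17, levels of these genes between populations are no finding, and since only 1 line was used, the replicates hold no spread between lines. The study's library list calls 1 library of each population mRNA and the other total RNA without giving their replicate numbers, so the spread between replicates may hold library kind as well as differentiation; replicate 2 had the more genes with a count in each population (18649, 18354 and 19859 against 16977, 16840 and 16773).

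Libraries summed to between 16457729 and 22768686 expected counts. The populations carried their labelled markers. By edgeR (adjusted p under 0.05 and over 2-fold), 7 of 8 ESC markers were lower and 6 of 6 definitive endoderm markers other than the sorted genes Foxa2 and Sox17 higher in d5FS than in d0, and 7 of 8 mesendoderm markers were higher in d3F than in d0. The d0 replicates stood apart from each other, with ESC markers summing to 1910 CPM (counts-per-million of the library, scaled by TMM) in replicate 1 and 7396 in replicate 2, and mesendoderm markers to 59.1 and 18.9 CPM. Much of the ESC sum in replicate 2 was Dppa5a, with 595 CPM in replicate 1 and 4450 in replicate 2. The other ESC markers were each higher in replicate 2 as well. The d0 replicates also differed in most of the 10 genes. Krt8, Krt19, Krt18 and Cldn6 were higher in d0 replicate 1 by 1.03, 1.34, 0.60 and 0.53 on the log2 scale of CPM. Cldn5, Cldn3, Cldn4 and Cldn9 had differences of -1.50, -1.07, -0.96 and -0.89. The largest differences of replicate 1 from replicate 2 in d3F were -0.97 (Krt8), -0.96 (Krt18) and -0.79 (Krt19). Those in d5FS were 1.07 (Cldn4), 0.90 (Cldn3) and 0.78 (Krt7). Calls that 1 library ended or added are given with each gene.

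Keratins build the intermediate filaments of epithelial cells. A type I keratin (Krt18, Krt19) pairs with a type II keratin (Krt7, Krt8) to form the filament, and Krt8 with Krt18 is the pair that embryonic and other simple epithelia are known for. Claudins are membrane proteins that join neighbouring cells at the tight junction and set which ions and solutes pass between the cells. The definitive endoderm is the epithelial sheet from which the lining of the gut and its glands forms, and it arises in the embryo from cells that pass through the primitive streak.

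All 4 keratins rose from d0 to d5FS, by between 8.76-fold and 20.2-fold. Of the 6 claudins, Cldn6 and Cldn7 rose, by 4.43-fold and 2.69-fold, Cldn5 fell, and Cldn3, Cldn4 and Cldn9 did not pass the test. A gene was called where edgeR's quasi-likelihood test gave a Benjamini-Hochberg adjusted p under 0.05 over all genes tested and the change exceeded 2-fold. From d0 to d5FS, 6 of the 10 genes were called higher and 1 lower, beside 12.4% higher and 10.4% lower among all genes tested. From d0 to d3F, 3 were called higher (Krt7, Krt18 and Krt19) and 0 lower by edgeR, beside 2.8% and 1.9% of all genes. From d3F to d5FS, 1 was called higher (Krt18) and 0 lower, beside 1.08% and 0.461% of all genes. The DESeq2 Wald test with the same thresholds called 7 of the 10 genes from d0 to d5FS, 5 in the step to d3F and 5 in the step after it, beside 26.3%, 10% and 7.16% of all genes to which it gave an adjusted p. Between d0 and d5FS the 4 keratins had a median log2 fold change of 3.78 and the 6 claudins one of 0.73, beside 0.02 for all genes tested. In bulk RNA a higher level per cell and a larger share of expressing cells cannot be told apart.

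**Figure D1:**
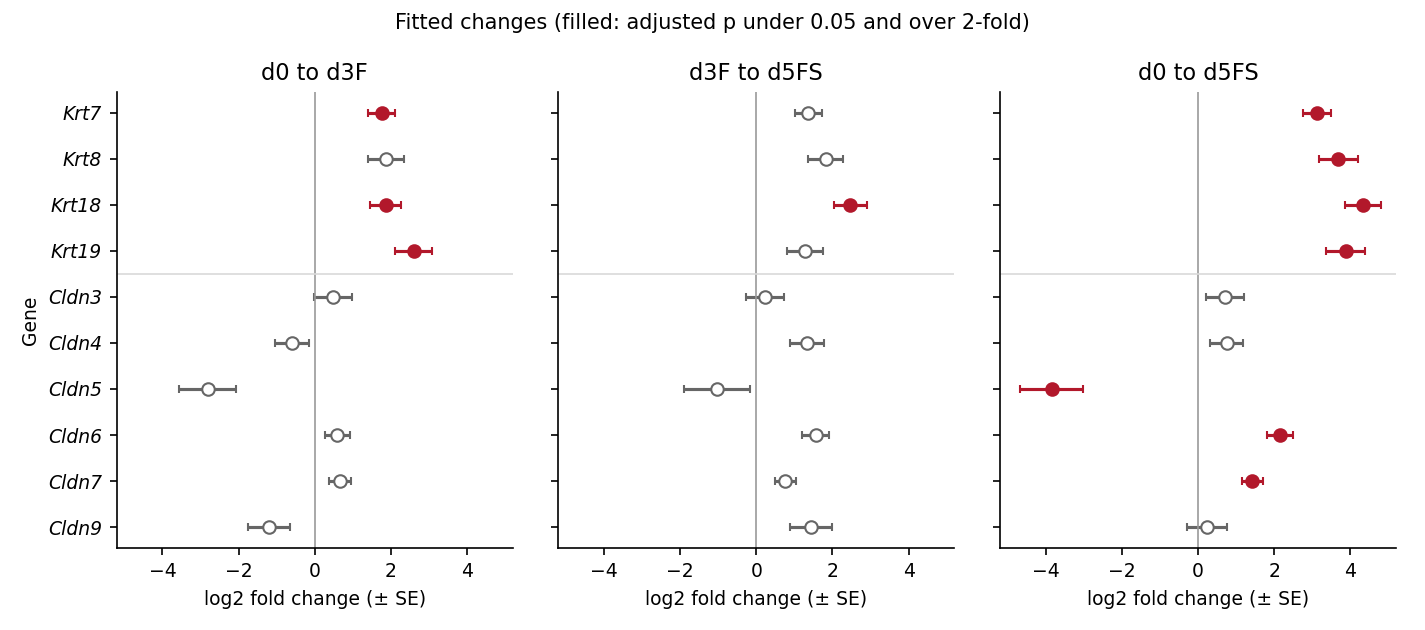
Fitted log2 fold changes (x axis) of the 4 keratins and 6 claudins (y axis) in the 3 comparisons, with standard errors as bars; filled points were called (adjusted p under 0.05 and over 2-fold) in the edgeR fit to all 6 libraries. All 4 keratins lie to the right of 0 in each panel, and Cldn5 is the 1 gene of the 10 called lower, from d0 to d5FS.

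Krt8, the type II partner of the simple-epithelial filament, had 408 and 199.6 CPM in the d0 replicates, 747 and 1468 in d3F, and 3638 and 4169 in d5FS. The populations did not overlap, although the higher replicate was 2.04 times the lower in d0 and 1.96 times in d3F. The change from d0 to d5FS was 3.68 on the log2 scale (SE 0.51, edgeR adjusted p = 0.00361), a 12.8-fold rise. Neither step reached the threshold in the main edgeR fit. The edgeR adjusted p was 0.0624 for d0 to d3F (log2 fold change 1.87) and 0.0993 for d3F to d5FS (1.82). The DESeq2 Wald test called both steps (adjusted p = 0.000962 and 0.00179), as did edgeR without the filter on low counts (1.14e-05 and 5.42e-05). With the replicate number as a block the first step was called (1.85, edgeR adjusted p = 0.0495). It was also called without d0 replicate 1 (2.47, edgeR adjusted p = 0.0326), which moved the change from d0 to d5FS to 4.28. The second step was called without d0 replicate 1 or d0 replicate 2 (edgeR adjusted p = 0.0491 and 0.0473) and in a fit to d3F and d5FS alone (0.0478).

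Krt18, the type I partner of Krt8, had 204 and 134 CPM at d0, 418 and 814 at d3F, and 3481 and 3353 at d5FS. It was the 1 gene of the 10 called in all 3 comparisons, 3.64-fold higher in d3F than in d0, 5.55-fold higher in d5FS than in d3F and 20.2-fold higher in d5FS than in d0 (log2 fold change 4.34, SE 0.46, edgeR adjusted p = 0.00187). The call from d0 to d3F (edgeR adjusted p = 0.0442) was lost without d0 replicate 2, d3F replicate 2 or either d5FS replicate (up to 0.303), with at least 10 counts required in every sample (0.0584) and in a fit to d0 and d3F alone (0.0629), and that from d3F to d5FS (0.0364) without any 1 of the 4 d3F and d5FS libraries (up to 0.285). The d0 to d5FS call was kept in 6 of 6 such fits, with edgeR adjusted p at most 0.0104, as were those of Krt7, Krt8 and Krt19.

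Krt19, a small type I keratin found in many ductal and embryonic epithelia, had 46.9 and 18.4 CPM at d0, 146 and 252 at d3F, and 458 and 504 at d5FS. Both d3F libraries lay above both d0 libraries, and the fitted rise in that step was 6.08-fold (log2 2.60, SE 0.49, edgeR adjusted p = 0.0260). From d3F to d5FS it was 2.42-fold, which did not pass in the main edgeR fit (adjusted p = 0.204) or the DESeq2 Wald test (0.0713). It passed in edgeR without the filter on low counts (adjusted p = 0.0135). The d0 to d3F call was lost without d0 replicate 2, d3F replicate 2 or d5FS replicate 2, with adjusted p up to 0.146. From d0 to d5FS Krt19 rose 14.7-fold (log2 3.88, SE 0.52, adjusted p = 0.00330). Without d0 replicate 1 the values were larger, 3.43 for d0 to d3F and 4.70 for d0 to d5FS (edgeR adjusted p = 0.00931 and 0.00191).

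Krt7, a type II keratin of ductal and glandular epithelia, was the lowest of the 4 keratins per length in all 6 libraries. It had 6.76 and 7.23 CPM at d0, 25.8 and 21.6 at d3F, and 77.5 and 45 at d5FS, so that the populations were separate and the d5FS replicates differed most. It rose 3.39-fold from d0 to d3F (log2 1.76, SE 0.36, edgeR adjusted p = 0.0330) and 8.76-fold from d0 to d5FS (log2 3.13, SE 0.38, adjusted p = 0.00263). The second step was called with the replicate block (log2 1.34, edgeR adjusted p = 0.0379) and not in the main edgeR fit (1.37 and 0.0954). It was also called by the DESeq2 Wald test (adjusted p = 0.0155) and by edgeR without the filter on low counts (0.0137). The call of the first step was lost without any 1 of the 4 d0 and d3F libraries (log2 1.64 to 1.89).

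**Figure D2:**
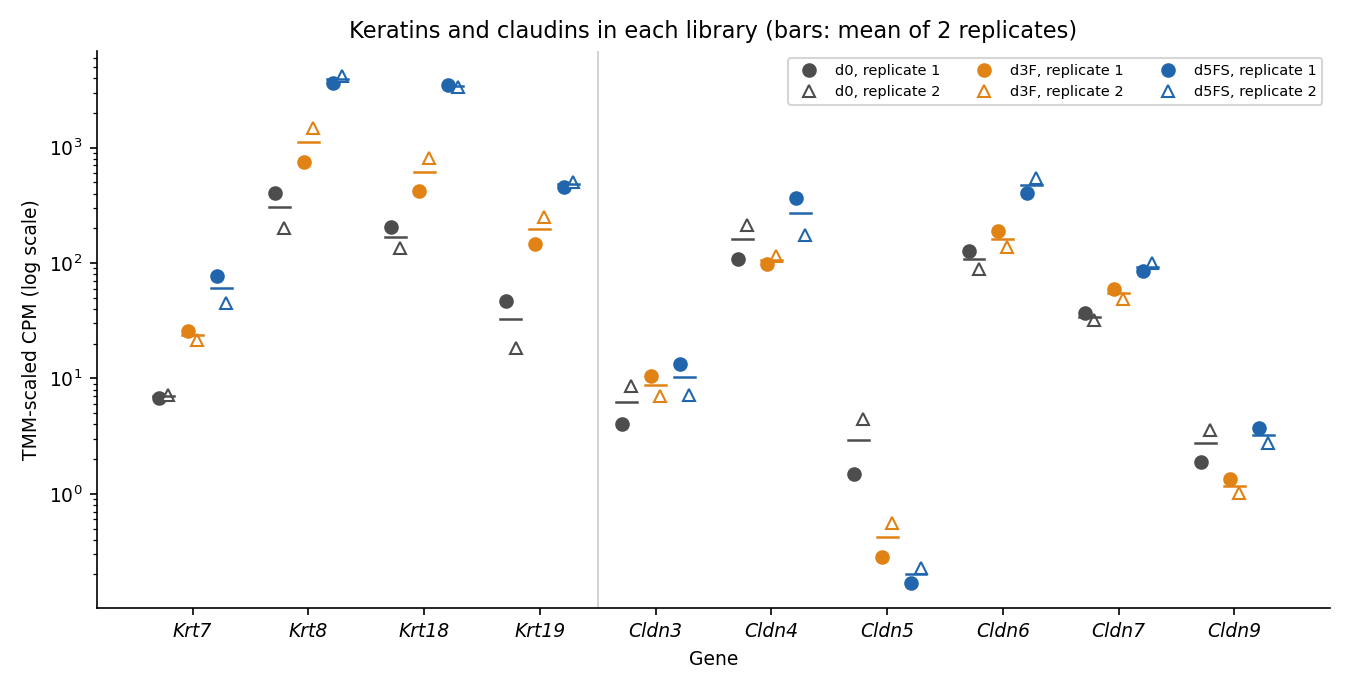
TMM-scaled CPM (y axis, log scale) of each gene (x axis) in each library; circles are replicate 1, open triangles replicate 2 and short bars the mean of the 2 replicates. Krt8 rises from 199.6 and 408 CPM in d0 to 3638 and 4169 in d5FS, Cldn5 falls from 1.49 and 4.41 to 0.170 and 0.229, and Cldn4 overlaps between d0 and d5FS.

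The replicates differed in when Krt8, Krt18 and Krt19 rose. In replicate 1 the log2 difference in CPM of Krt8 was 0.87 up to d3F and then 2.28 up to d5FS, and in replicate 2 it was 2.88 and then 1.51. Krt18 showed the same order, with 1.03 and 3.06 in replicate 1 and 2.60 and 2.04 in replicate 2. For Krt19 the values were 1.64 and 1.65 in replicate 1 and 3.77 and 1.00 in replicate 2. Krt7 did not share this split (1.93 and 1.59 in replicate 1, 1.58 and 1.06 in replicate 2). With 1 library per replicate and population these differences in timing have no test. The d0 library with the higher Krt8, Krt18 and Krt19 was also the one with the lower summed ESC markers. In d3F these genes were higher in replicate 2, with differences of replicate 1 from replicate 2 of -0.97, -0.96 and -0.79. The part of the d0 and d3F differences in the timing was not tested.

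Krt8 and Krt18 are neighbours on chromosome 15 and are read away from each other. In GENCODE M21 on GRCm38 (mm10), Krt8 lies at chr15:101996698-102004482 on the minus strand with 9 exons and Krt18 at chr15:102028180-102032027 on the plus strand with 7 exons, 23.7 kb apart. Krt7 lies 566 kb from Krt8 at chr15:101411043-101430313 on the plus strand, and Krt19 on another chromosome, at chr11:100140810-100148665 on the minus strand. The stretches just upstream of Krt8 and Krt18 are shown because these genes are neighbours that rose together, and those of Cldn4 and Cldn5 because Cldn4 carries a repeated motif and Cldn5 fell. Each is written 5′ to 3′ on the strand of its gene from the RefSeq promoter table (GRCm38.p6), cut before the first base that GENCODE M21 places in an exon of the gene, and capitals mark matches to the motifs searched. The windows are chr15:102004483-102004592 on the minus strand for Krt8, chr15:102027966-102028179 on the plus strand for Krt18, chr5:134946935-134947184 on the minus strand for Cldn4 and chr16:18776597-18776846 on the plus strand for Cldn5.
Krt8: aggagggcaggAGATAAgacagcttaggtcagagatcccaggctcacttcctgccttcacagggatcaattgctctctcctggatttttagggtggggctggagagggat
Krt18: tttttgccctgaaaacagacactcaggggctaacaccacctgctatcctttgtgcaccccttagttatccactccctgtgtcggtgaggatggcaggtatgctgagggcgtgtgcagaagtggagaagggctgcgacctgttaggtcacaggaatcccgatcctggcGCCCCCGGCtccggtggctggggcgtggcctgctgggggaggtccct
Cldn4: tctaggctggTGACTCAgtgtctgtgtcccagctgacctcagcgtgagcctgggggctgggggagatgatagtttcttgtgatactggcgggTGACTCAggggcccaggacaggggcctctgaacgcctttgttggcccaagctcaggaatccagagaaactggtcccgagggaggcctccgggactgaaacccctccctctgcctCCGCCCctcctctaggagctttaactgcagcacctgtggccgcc
Cldn5: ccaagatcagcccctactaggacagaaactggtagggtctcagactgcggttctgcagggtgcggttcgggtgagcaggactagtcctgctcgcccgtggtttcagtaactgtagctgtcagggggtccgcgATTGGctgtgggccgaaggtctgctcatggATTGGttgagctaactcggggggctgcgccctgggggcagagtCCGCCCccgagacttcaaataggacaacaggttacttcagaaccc

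Motifs were searched on both strands in the 250 bases before each RefSeq start, for 8 of the 10 genes (9 windows, since Cldn7 has 2 starts). Krt19 and Cldn9 did not match. Distances are to RefSeq starts, which for Krt7, Krt8, Krt18, Cldn6 and the later Cldn7 start lie inside the gene as GENCODE places it. Krt8 held AGATAA, the core bound by Gata factors, 239 bases before its RefSeq start, and so nearer to its GENCODE start. This match was found in 9.99% of all 32851 promoter windows of the same length. Krt18 held GCCNNNGGC, an AP-2 motif, 83 bases before its start (13.7% of all windows), and Krt7 held it in 2 places, the farther of which overlaps a GC box. Cldn4 held TGANTCA, the AP-1 motif, in 2 places at 240 and 158 bases before its start (6.75% of windows hold at least 1). The GC box GGGCGG was present in windows of Cldn3, Cldn4, Cldn5, Cldn6, Cldn7 and Krt7 (32.7%). By GENCODE, the Cldn7 match and all Krt7 matches, AP-2 included, lie inside the gene and after the first exon base of the window. CCAAT, read on the opposite strand, was at 2 places upstream of Cldn5 (33.8%). TGTTTAC, a Foxa motif, TATAAA and the Grhl motif AACCNGGTT had no match in the 9 windows, beside 3.17%, 12.4% and 0.240% of all windows. A match is only a run of letters, and none of these says that a factor binds there.

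Most other genes of both keratin clusters were at or near 0, and Krt42 and Krt17, the highest of them in d0, fell. Chromosome 15 holds 21 keratin genes beside Krt7, Krt8 and Krt18; 17 of them had under 10 counts in every library, 1 passed the filter, and the highest level among them was 3.52 CPM. That gene, Krt80, a neighbour of Krt7 at 40880 bases, had 0.307 and 0.103 CPM in d0 and 3.52 and 1.78 in d5FS and rose (log2 fold change 3.63, edgeR adjusted p = 0.0178). Chromosome 11 holds 26 keratin genes beside Krt19, of which 15 had under 10 counts in every library and 8 were tested. Krt42 fell from 7.76 and 20.5 CPM in d0 to 0.227 and 0.802 in d5FS (log2 fold change -4.76, edgeR adjusted p = 0.00506). Krt17, a keratin of basal and appendage epithelium, fell from 8.99 and 18.4 to 0.794 and 1.2 CPM (-3.77), and Krt14, the basal keratin of stratified epithelium, from 1.84 and 2.05 to 0.340 and 0.115 CPM (-3.06, adjusted p = 0.0248). Over the 26 further keratins of the fixed list, 9 were tested, 1 was called higher and 3 lower from d0 to d5FS, with a median log2 fold change of 0.10; 2 of the 9 were already called lower from d0 to d3F.

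**Figure D3:**
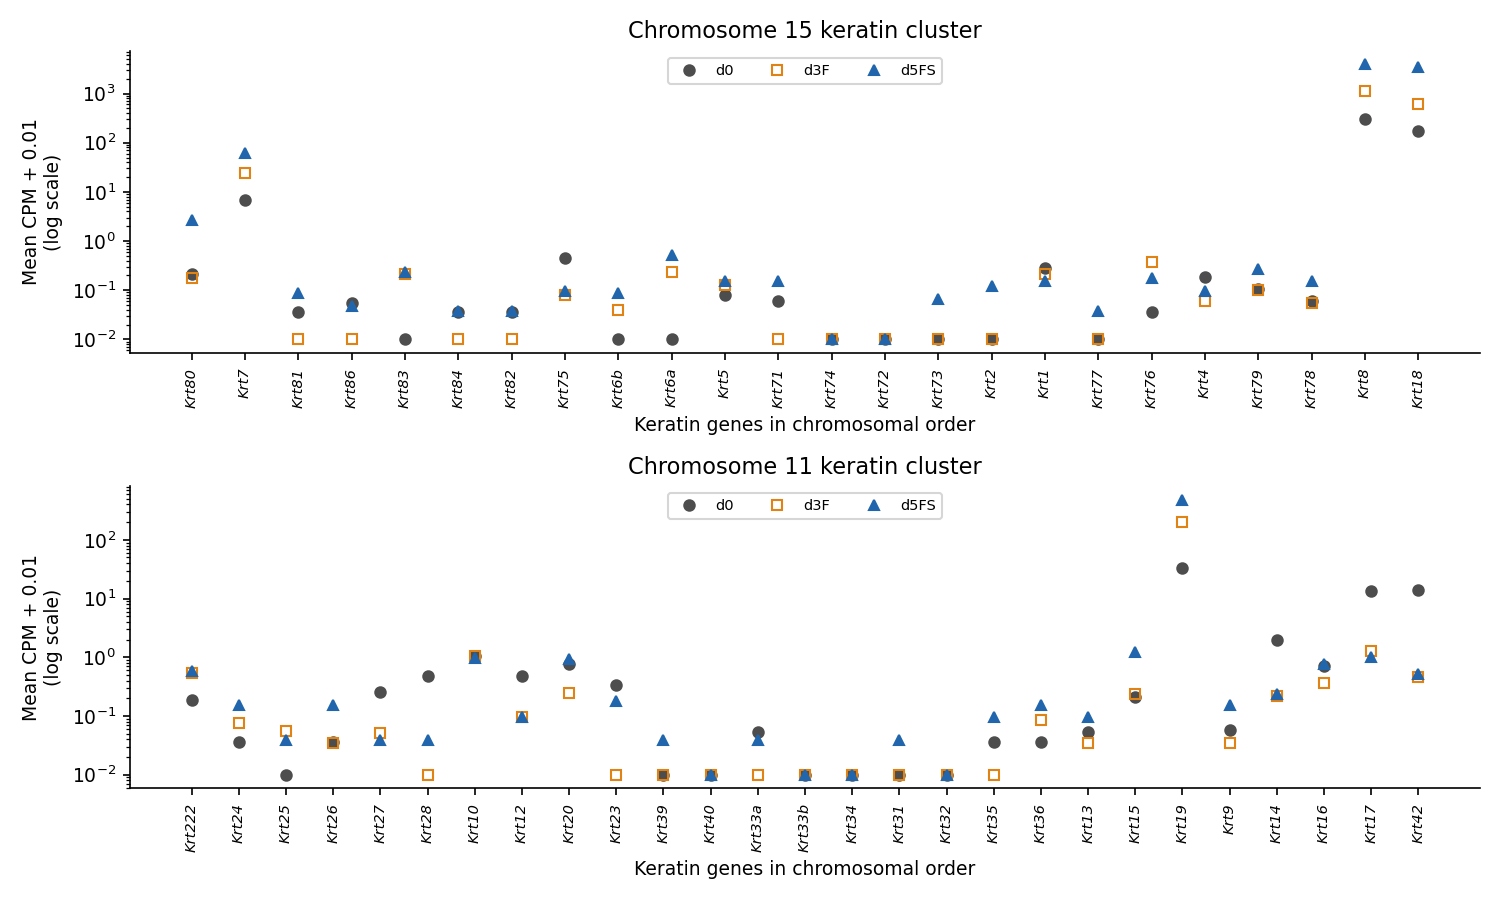
Mean CPM of the 2 replicates plus 0.01 (y axis, log scale) of the keratin genes of chromosomes 15 and 11 in chromosomal order (x axis) in d0, d3F and d5FS. Krt8, Krt18, Krt7 and Krt19 stand above the other genes in d5FS, and Krt17 and Krt42 are higher in d0 than in d3F and d5FS.

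Levels of different genes were compared per length, as TPM (transcripts-per-million) within a library. Genes shorter than 200 bases took between 21.7% and 52.6% of all TPM, so only ratios and shares within a library are given. The 4 keratins held between 88.2% (d0 replicate 2) and 99.9% (d5FS replicate 2) of the TPM of the 52 keratin genes listed. Krt18 and Krt8 were close to each other in every library. The ratio of Krt18 to Krt8 was 0.671 and 0.899 at d0, 0.749 and 0.741 at d3F, and 1.28 and 1.07 at d5FS. Both d5FS libraries thus lay above the other 4, and in both Krt18 was the more abundant transcript, whereas the d0 and d3F ratios overlapped. Summed over both genes of each type, type I to type II was 0.812 and 0.984 at d0, 0.977 and 0.959 at d3F, and 1.42 and 1.22 at d5FS. With 2 libraries against 2, an exact permutation test cannot go below p = 0.33, so no test was made. Among 22798 genes of at least 200 bases, Krt18 ranked 522 and 870 by TPM at d0, 282 and 205 at d3F, and 50 and 77 at d5FS, and Krt8 ranked 365 and 786, 226 and 176, and 69 and 81. The 4 keratins together took 0.0687% and 0.0315% of all counts at d0, 0.145% and 0.245% at d3F, and 0.820% and 0.802% at d5FS.

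The order Krt8, Krt18, Krt19, Krt7 held in the 4 d0 and d3F libraries. Krt19 made up 8.52% and 6.08% of the TPM of the 4 keratins at d0, 13.0% and 11.8% at d3F, and 6.95% and 7.33% at d5FS, so that its share was highest in both d3F libraries and its d0 and d5FS shares overlapped. Krt7 made up between 0.555% and 2.02%.

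**Figure D4:**
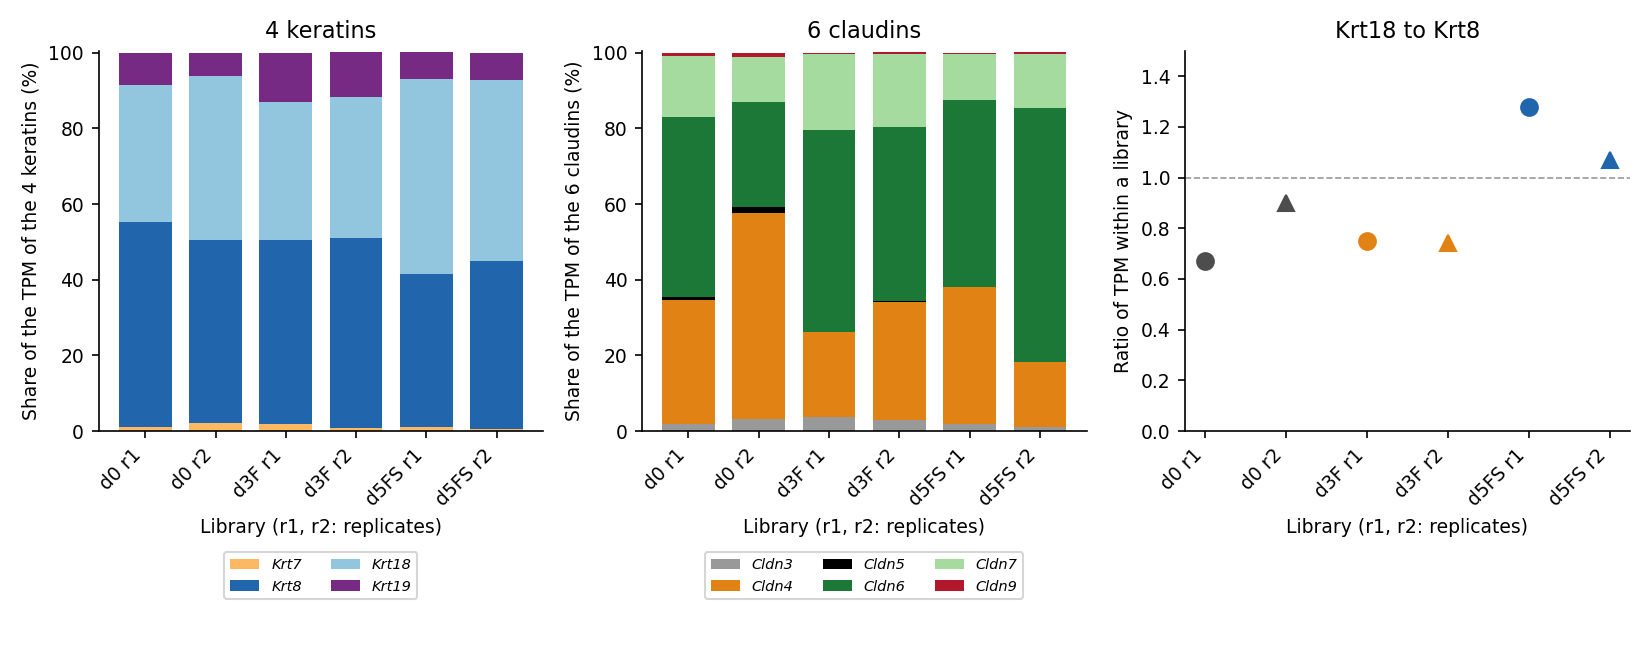
Share (%) of each gene in the TPM of the 4 keratins (left) and of the 6 claudins (middle), and the TPM ratio of Krt18 to Krt8 (right; dashed line at 1), for each library (x axis). The ratio is 1.28 and 1.07 in the d5FS libraries and between 0.671 and 0.899 in the other 4; Cldn4 takes 54.3% of the claudin TPM in d0 replicate 2 and 17.2% in d5FS replicate 2.

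Cldn6, a claudin of embryonic epithelia, had 127 and 88.3 CPM at d0, 188 and 137 at d3F, and 405 and 551 at d5FS. The populations were separate, with d3F replicate 2 only just above d0 replicate 1. It rose 4.43-fold from d0 to d5FS (log2 2.15, SE 0.35, edgeR adjusted p = 0.00570), a call kept in 6 of 6 fits that left out 1 library. The first step was not called (log2 0.59, adjusted p = 0.378). The second was called with the replicate block (log2 1.58, edgeR adjusted p = 0.0292) and not in the main edgeR fit (1.55 and 0.0687). It was also called by the DESeq2 Wald test (adjusted p = 0.00163) and by edgeR without the filter on low counts (0.00127). Without the block it was called when d0 replicate 1 or d0 replicate 2 was left out (edgeR adjusted p = 0.0485 and 0.0473) and in a fit to d3F and d5FS alone (0.0452).

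Cldn7, which lies along the sides of epithelial cells as well as at tight junctions, had 36.8 and 31.8 CPM at d0, 59.9 and 49.1 at d3F, and 84.6 and 100.3 at d5FS. The replicates differed by at most a ratio of 1.22, and the populations did not overlap. It rose 2.69-fold from d0 to d5FS (log2 1.43, SE 0.29, edgeR adjusted p = 0.0118), with no single step called (adjusted p = 0.229 and 0.209). The call was lost without d0 replicate 2 or without d5FS replicate 2, where adjusted p reached 0.0546.

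Cldn5, the claudin of endothelial barriers, was the 1 gene of the 10 that fell. Its expected counts were 34 and 86 at d0, 7 and 11 at d3F, and 3 and 4 at d5FS, or 1.49 and 4.41, 0.284 and 0.556, and 0.170 and 0.229 CPM. Levels were low throughout, the d0 replicates differed 2.96-fold, and the libraries of the populations nonetheless did not overlap. Between d3F and d5FS this rests on few counts. Over pooled counts, 18 in d3F and 7 in d5FS, the ratio was 2.03 with an exact 95% counting interval of 0.809 to 5.75, which includes 1. The fitted change from d0 to d5FS was -3.84 on the log2 scale (SE 0.82, edgeR adjusted p = 0.0148); over pooled counts, 120 in d0 and 7 in d5FS, the ratio of d0 to d5FS was 14.2 with an exact 95% interval of 6.69 to 36.1, which covers counting error only. This call was lost without d0 replicate 2, d5FS replicate 1 or d5FS replicate 2 (edgeR adjusted p up to 0.106), and the value was -2.86 without d0 replicate 2 and -4.43 without d0 replicate 1. The step from d0 to d3F was not called in the main edgeR fit (log2 -2.81, edgeR adjusted p = 0.0703). It was called with the replicate block (-2.70, edgeR adjusted p = 0.0366) and without d0 replicate 1 (-3.39). The DESeq2 Wald test called it too (-2.86, adjusted p = 0.0229), as did edgeR without the filter on low counts (-2.78, 0.00454).

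Cldn4, a barrier claudin that binds Clostridium enterotoxin, had 109 and 212 CPM at d0, 98.0 and 114 at d3F, and 364 and 174 at d5FS. The d0 and d5FS libraries overlapped, and the replicates disagreed in direction: within replicate 1 the log2 difference from d0 to d5FS was 1.75, and within replicate 2 it was -0.28. The fitted change was 0.75 (SE 0.44, edgeR adjusted p = 0.246). Both d5FS libraries were above both d3F libraries, but the change of 1.34 between them did not pass in the main edgeR fit (adjusted p = 0.168). The DESeq2 Wald test called it (log2 1.34, adjusted p = 0.0481), as did edgeR without the filter on low counts (1.33 and 0.00722).

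Cldn3, which is close in sequence to Cldn4 and binds the same toxin, had 3.99 and 8.51 CPM at d0, 10.4 and 7.02 at d3F, and 13.3 and 7.11 at d5FS. All 3 populations overlapped, and its log2 change from d0 to d5FS of 0.71 (SE 0.51, edgeR adjusted p = 0.337) was 1.73 within replicate 1 and -0.26 within replicate 2. Cldn9, a claudin known from the inner ear, had 1.89 and 3.59 CPM at d0, 1.34 and 1.01 at d3F, and 3.69 and 2.75 at d5FS. It was lowest in both d3F libraries without passing the test in either step (log2 -1.21 and 1.45, edgeR adjusted p = 0.262 and 0.221), and d0 and d5FS overlapped (0.24, adjusted p = 0.779).

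By TPM within a library, Cldn6 was the most abundant of the 6 claudins in 5 of the 6 libraries, with 27.9% to 67.1% of their summed TPM. Cldn4 led in d0 replicate 2, and the ratio of Cldn4 to Cldn6 was 0.690 and 1.94 at d0, 0.421 and 0.677 at d3F, and 0.729 and 0.256 at d5FS, so the populations overlapped. Cldn7 was next with 11.8% to 20.0%, then Cldn3 with 1.06% to 3.63%, and Cldn9 and Cldn5 had at most 1.2% and 1.49%. The 6 claudins held 87.1% to 94.6% of the TPM of the 25 claudin genes listed. Keratin TPM to claudin TPM was 2.29 and 1.06 at d0, 3.54 and 8 at d3F, and 8.94 and 9.31 at d5FS; both d5FS libraries were above the other 4.

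Of the 6 claudin genes, 4 lie in neighbouring pairs. Cldn4 (chr5:134945119-134946934, minus strand) and Cldn3 (chr5:134986214-134987472, plus strand) are divergent single-exon neighbours 39.3 kb apart. Cldn6 (chr17:23679249-23682446, plus strand, 3 exons) and Cldn9 (chr17:23682584-23684026, minus strand, 1 exon) end 137 bases from each other, and Cldn6 was called from d0 to d5FS while Cldn9 was not; a difference between these changes was not tested. Tnfrsf12a, on the other side of Cldn6 at 1780 bases, rose as well (log2 fold change 2.03, edgeR adjusted p = 0.0107). Cldn7 (chr11:69964779-69967885, plus strand, 4 exons) lies 336 bases from Elp5, which was at -0.04 (adjusted p = 0.947), and Cldn5 (chr16:18776847-18778262, plus strand, 1 exon) lies 2184 bases from Cdc45, at -0.90 (adjusted p = 0.142). Of the keratins, Krt19 lies 4881 bases from Krt15, at 2.50 (adjusted p = 0.0699), and Krt18 lies 41745 bases from Eif4b, at -0.11 (adjusted p = 0.875). Antisense or intergenic transcripts overlap Krt7 (Gm671), Krt8 (Gm36026) and Cldn3 (Wbscr25); the counting is not stated to use strand, so reads of such partners could not be told apart. In a BLAST search at 90% identity over at least 100 bases, Krt8 had a processed pseudogene (Krt8-ps) and Krt18 had Gm5200; neither is a row of the tables, and no such copy was found for the other 8 genes.

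**Figure D5:**
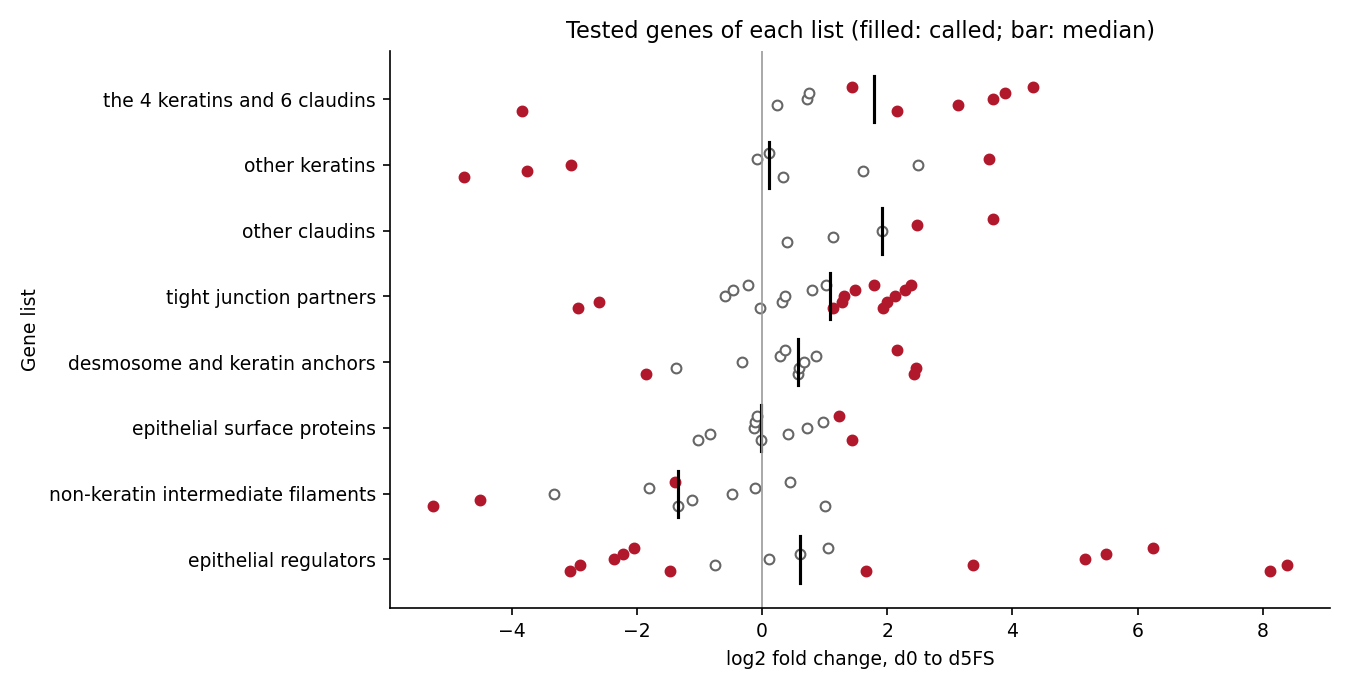
Log2 fold change from d0 to d5FS (x axis) of the tested genes of each list (y axis; each point is a gene, filled points were called, bars are medians). The keratins and claudins have a median of 1.79 and tight junction partners of 1.08, non-keratin intermediate filament genes of -1.34, and epithelial surface proteins of -0.02.

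Beside the claudins, tight junction partners were called higher in 10 and lower in 2 of 20 genes from d0 to d5FS, with a median log2 fold change of 1.08 beside 0.02 for all genes. Among all genes, 12.4% were called higher and 10.4% lower in this comparison, and these shares belong beside the counts of every list. Ocln, which encodes the junction strand protein occludin, rose from 18.4 and 14.0 CPM in d0 to 61.2 and 50.6 in d5FS (log2 1.78, edgeR adjusted p = 0.0155). Marveld2, the protein of tricellular junctions, rose by 2.37 and Inadl, a polarity scaffold, by 2.29 on the log2 scale (edgeR adjusted p = 0.00641 and 0.00725). The 2 that fell were the junctional adhesion molecules Jam2 (-2.94) and Jam3 (-2.60), with adjusted p = 0.0224 and 0.0106. Tjp1, the scaffold ZO-1, had 174 and 83.3 CPM in d0 and 169 and 83.2 in d5FS (log2 -0.03, adjusted p = 0.967). From d0 to d3F 1 of the 20 was called higher and 1 lower, beside 2.8% and 1.9% of all genes. From d3F to d5FS 0 were called higher and 1 lower by edgeR, beside 1.08% and 0.461%.

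Of 18 further claudins 5 were tested, and 2 rose from d0 to d5FS: Cldn2, which forms cation pores, from 0.219 and 0.205 to 2.21 and 3.38 CPM (log2 3.68, edgeR adjusted p = 0.00973), and Cldn23 from 0.351 and 0.513 to 3.80 and 1.03 CPM (log2 2.48, adjusted p = 0.0496).

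Of 13 desmosome genes and keratin anchors, 12 were tested, and 3 were called higher and 1 lower from d0 to d5FS (median log2 0.57), beside 12.4% higher and 10.4% lower among all genes. Dsp, desmoplakin, which ties keratin filaments to the desmosome, had 118 and 23.8 CPM at d0, 167 and 178 at d3F, and 566 and 197 at d5FS (log2 2.43, edgeR adjusted p = 0.0464). Eppk1, the keratin-binding epiplakin, rose by 2.45 and the desmosomal cadherin Dsc2 by 2.15 on the log2 scale, while envoplakin, Evpl, was at -1.85 (adjusted p = 0.0157, 0.0209 and 0.0177). Of 12 epithelial surface proteins 11 were tested, and 2 rose, Spint1 (1.44) and Prss8 (1.23; adjusted p = 0.00946 and 0.0499), with a median of -0.02; among all genes, again, 12.4% were called higher. Cdh1, E-cadherin, had 435 and 274 CPM at d0, 373 and 218 at d3F, and 478 and 466 at d5FS (log2 0.41, edgeR adjusted p = 0.448). Epcam, an adhesion molecule of ESCs and epithelia, had 264 and 196, 226 and 97.7, and 280 and 141 CPM (log2 -0.13, adjusted p = 0.867). Both transcripts were thus present at these levels in d0 already. In the single steps, edgeR called 0 of the desmosome genes and 0 of the surface proteins from d0 to d3F, and 1 higher in each list from d3F to d5FS.

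Among 11 intermediate filament genes that are not keratins, 0 were called higher and 3 lower from d0 to d5FS by edgeR (median log2 -1.34): the neuronal filaments Ina (-5.26) and Nefl (-4.50) and the lamin Lmnb1 (-1.39; adjusted p = 0.0187, 0.00509 and 0.0139). Vim, vimentin, the filament of mesenchymal cells, had 81.9 and 114 CPM at d0, 414 and 892 at d3F, and 236 and 157 at d5FS, highest in both d3F libraries. The step up to d3F was called (log2 2.74, edgeR adjusted p = 0.0171) and the step down to d5FS was not (-1.73, adjusted p = 0.0922). The TPM ratio of Krt8 to Vim was 5.08 and 1.78 at d0, 1.84 and 1.68 at d3F, and 15.7 and 27.0 at d5FS, so that Krt8 exceeded Vim in every library, and by most in d5FS.

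Of 18 regulators linked to epithelial genes 17 were tested, and 7 were called higher and 6 lower from d0 to d5FS, beside 12.4% and 10.4% of all genes. In the step to d3F 3 were called higher and 2 lower (2.8% and 1.9% of all genes), then 3 and 0 (1.08% and 0.461%). Foxa2, on which the cells were sorted, is among those called higher from d0 to d5FS and from d0 to d3F, so its call is no finding. Hnf4a rose from 0.0877 and 0.205 to 39.0 and 60.8 CPM (log2 8.39, edgeR adjusted p = 0.00270), and Foxa1 by 5.49 on the log2 scale (adjusted p = 0.00302). Foxa2, the sorted reporter gene, had 0.0439 and 0.308 CPM at d0, 71.1 and 47.8 at d3F, and 36.6 and 59.4 at d5FS. Grhl2, a factor known to act on epithelial junction genes, had 57.5 and 38.2 CPM at d0, 22.4 and 10.7 at d3F, and 13.7 and 9.46 at d5FS, and fell by 2.05 on the log2 scale (adjusted p = 0.0156). The related Grhl1 fell as well (log2 -3.07, edgeR adjusted p = 0.00710), and Grhl3 was not called (1.05, adjusted p = 0.0980). A link between these changes and the levels of the 10 genes was not tested.

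Keratins and claudins also mark other epithelia, so the markers of those were counted. Of 12 visceral and parietal endoderm markers, 7 were called higher and 0 lower from d0 to d5FS by edgeR, their summed level going from 213 and 247 CPM in d0 over 166 and 376 in d3F to 756 and 827 in d5FS, and in both d5FS libraries 12 of 12 were at 1 CPM or more. The largest part of this sum was Sparc, a widely expressed matrix protein gene, with 158 and 125 CPM in d0 and 617 and 600.3 in d5FS; without it the sum was 55.4 and 123 CPM at d0, 41.7 and 65.1 at d3F, and 139 and 226 at d5FS. Ttr reached 10.7 and 20.2 CPM, Afp 6.13 and 25.3 and Apoa1 23.9 and 47.6 in d5FS, and Cubn 8.74 and 9.52. Several of these genes are also used by definitive endoderm derivatives such as liver, and their part in the keratin and claudin results was not tested. Of 10 trophectoderm markers 6 were tested, with 1 called higher (Gata3, log2 3.45) and 2 lower (Cdx2, -2.96, and Tfap2c, -2.90), and their sum was 52.8 and 74.5 CPM in d0 and 41.5 and 43.0 in d5FS; Tpbpa was at 0 in 5 of 6 libraries.

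Of 11 endothelial markers 8 were tested, and 4 were called lower and 1 higher from d0 to d5FS. Esam (log2 -5.60), Cd34 (-4.48), Tek (-3.14) and Pecam1 (-2.85) fell, as Cldn5 did, and Flt1 rose (3.86); Emcn was at 0 in 5 of 6 libraries and Cdh5 reached at most 1.36 CPM. The summed level of this list was 74.8 and 82.6 CPM in d0 and 122 and 162 in d5FS. Flt1 made up 9.12 and 3.43 CPM of it in d0 and 78.7 and 104 in d5FS, so the rest of the sum did not rise. The part of this list in the level of Cldn5 was not tested. Of 8 surface ectoderm markers 5 were tested and 1, Krt14, was called lower, with sums of 13.6 and 16.4 CPM in d0 and 21.0 and 31.4 in d5FS. Grhl3, which was not called, made up 9.96 and 13 CPM of these sums in d0 and 18.3 and 29.2 in d5FS. Of 10 fibroblast markers, fixed because ESCs are kept on feeders before the passages on gelatine, 9 were tested and 4 were called higher: Col1a2 (log2 6.06), Postn (5.30), Col3a1 (4.15) and Col1a1 (2.23). Thy1, Dcn, Pdgfrb, Twist2 and S100a4 were not called, and Lum was not tested. The list summed to 14.5 and 17.8 CPM at d0, 37.1 and 85.4 at d3F, and 236 and 197 at d5FS. The part of this list in the keratin and claudin results was not tested.

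Across the 6 libraries the profiles of Krt8 and Krt18 were the most alike of any pair among the 10 genes (Pearson r of log2 CPM 0.990), followed by Krt8 with Krt19 (0.980) and Cldn6 with Cldn7 (0.977). Cldn4 followed Cldn9 (0.855) more closely than its neighbour Cldn3 (0.590), and Cldn6 and Cldn9 had r = 0.306. These are descriptions over 6 libraries that fall into 3 populations, and the genes share libraries. Among 10410 genes with a mean of at least 5 CPM, those most like Krt8 were Fam20c (0.999) and Fhl2 (0.998), those most like Krt18 were Fuca2 and Fndc4 (both 0.997), those most like Krt19 were Sema6d and Galns (both 0.997), and those most like Krt7 were Zc3h6 (0.998) and Galnt11 (0.994). For the claudins they were Rnf146 (0.997) and Stx4a (0.996) for Cldn6, Chmp4b (0.998) and Kif3b (0.995) for Cldn7, Ash2l (0.997) and Anapc10 (0.996) for Cldn5, Bbs9 and Snhg6 (both 0.980) for Cldn4, Sorl1 (0.988) and B4galnt3 (0.981) for Cldn9, and Kif3a (0.966) and Trps1 (0.954) for Cldn3. The number of genes that reached 0.95 was 461 with Krt19, 431 with Krt8, 405 with Krt18 and 254 with Krt7. Among the claudins it was 174 with Cldn7, 130 with Cldn5, 112 with Cldn6, 14 with Cldn4, 12 with Cldn9 and 4 with Cldn3.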

How the data were processed

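RNA of the 6 sorted samples was sequenced as 100 bp paired ends by the authors, who aligned reads to mm10 with STAR and quantified genes with RSEM, per the labels and the study's methods; versions, the annotation and strand use are not given in the sources used here. The labels and methods describe ribosome-depleted total RNA for all 6, whereas the study's library list names 1 library per population mRNA and the other total RNA without tying these to replicate numbers; this conflict was not resolved, and library kind may follow replicate number. The deposited tables hold expected counts and TPM, both of which were used; the deposited FPKM was not. Expected counts were rounded to whole numbers, genes were kept by filterByExpr (14539 of 24054), and edgeR 4.0.16 (R 4.3.3) was fitted with TMM scaling to all 6 samples with a mean per population and 3 residual degrees of freedom; DESeq2 1.42.0 was an alternative. P-values were adjusted by Benjamini-Hochberg over all genes tested. With 2 replicates per population, the p-values measure the spread between these libraries, which may be partly technical.

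Replicate numbers were checked for pairing: deviations of same-numbered samples correlated at 0.314, 0.324 and 0.278 for the 3 pairs of populations, so the number was taken to pair samples, and the fit with it as a block is given where it changed a call. The script was tested on simulated data. Positions came from GENCODE M21, promoter windows from RefSeq (GRCm38.p6), and look-alike transcripts from BLAST 2.17.0 of GENCODE transcripts; figures were drawn with matplotlib 3.10.9. The genes and lists were chosen with earlier results of these data known. Named beside the 10 genes were up to 4 called genes of each list with the largest change from d0 to d5FS, Cdh1, Epcam, Tjp1, Ocln, Dsp, Vim, Grhl2 and Foxa2, the 2 genes most like each in profile, and chromosomal neighbours. Pecam1, Cdh5, Emcn, Tpbpa, Lum, Thy1, Dcn, Pdgfrb, Twist2, S100a4 and Sparc were added after their values were seen. Counts at this depth (16457729 to 22768686 per sample) limit Cldn5 and Cldn9, with 3 to 86 counts per library.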

Additional observations from a re-analysis of the deposited data

How the results depend on the processing

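From d0 to d5FS the number of the 10 genes called stayed within 1.5 times of 7 under every alternative: 7 with DESeq2 size factors, the DESeq2 Wald test, no filter, the replicate block and a fit to the compared populations alone, 6 with edgeR's glmTreat against a 2-fold change and with at least 10 counts in every sample, 5 with DESeq2 against a 2-fold change, and 5 to 7 with 1 library left out. The single steps depended on the setting, and the cause was not tested. From d0 to d3F 3 genes were called, against 5 with the DESeq2 Wald test, 5 without the filter, 5 with the replicate block, 1 with DESeq2 against a 2-fold change, 0 with glmTreat and 0 to 4 with 1 library left out. From d3F to d5FS 1 was called, against 5 with the DESeq2 Wald test, 6 without the filter, 3 with the replicate block, 3 in the fit to the compared populations alone, 0 with glmTreat and 0 to 3 with 1 library left out. The replicate block gained 4 calls (Krt8 and Cldn5 in the first step, Krt7 and Cldn6 in the second) and changed no other call of the 10 genes. The sign turned only for genes that were not called: Cldn3 from d3F to d5FS was at -0.04 without d3F replicate 2 and -0.31 without d5FS replicate 1 (0.23 with all libraries, and at most 0.61), and Cldn9 from d0 to d5FS at -0.17 without d0 replicate 1 (0.24 with all, and at most 0.78).

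Over all genes, 683 were called from d0 to d3F, against 1486 with the DESeq2 Wald test, 1933 without the filter, 1320 with the replicate block, 430 in the fit to the compared populations, 385 with DESeq2 against a 2-fold change, 357 with at least 10 counts in every sample, 242 with glmTreat and 97 to 977 with 1 library left out. From d3F to d5FS 224 were called, against 1059, 1423, 918 and 529 in the first 4 of these settings, 144 with at least 10 counts, 70 with glmTreat and 0 to 496 with 1 library left out. From d0 to d5FS 3313 were called. More were called without the filter (4495), with the replicate block (4296), with the DESeq2 Wald test (3997) and with DESeq2 size factors (3337). Fewer were called in the fit to the compared populations (2644) and with at least 10 counts in every sample (2478). The same held for glmTreat (1235), DESeq2 against a 2-fold change (1004) and every fit with 1 library left out.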
